A study of Homo sapiens with 24 samples.

Results

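The genes described here are 10 genes that handle fatty acids or coat lipid droplets: FABP3, FABP4, FABP5, FABP6 and FABP7, PLIN2, PLIN3 and PLIN4, HILPDA and CPT1A. They were found by their symbols among the 60675 genes of the count tables, and all 10 were present. The list was drawn up by gene function, but with earlier results of these data known, so its p-values are not independent of that choice. FABP3 was picked on its measured counts in ACHN cells, for its fall in the ACHN knockdowns. Its values in ACHN cells are therefore given as a description and carry no test. RNA-seq was performed in 2 human kidney cell lines, ACHN, a renal cancer line that the labels class as ccRCC, and HK2, an immortalised line from human kidney, to ask how the histone demethylase KDM5C and the transcription factor YY1 act together on gene expression. Each line carried a lentiviral short hairpin and was grown in DMEM with serum. The 4 groups of each line were shNC (a control hairpin), shKDM5C, shYY1 and the double knockdown of KDM5C and YY1, called Dsh, with 3 libraries per group and 24 libraries in all. Stable lines were selected with puromycin, so all groups, shNC included, carry a vector and its selection. Dsh cells were made from YY1-depleted cells by infection with a further, GFP-labelled KDM5C hairpin vector. Which of the hairpins per gene was used for RNA-seq is not stated in the labels, and nothing in them says that the 3 libraries of a group came from separate cultures, so that p-values measure only the spread between these libraries.

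Free fatty acids are poorly soluble in water, and fatty acid binding proteins carry them through the cytosol to membranes, mitochondria and the nucleus. Fatty acids that are not burned are stored as triglyceride in lipid droplets, whose surface is covered by perilipins and whose breakdown is restrained by inhibitors such as HILPDA. CPT1A, on the outer mitochondrial membrane, joins long-chain fatty acids to carnitine and so opens the way to beta-oxidation. Clear cell renal carcinoma takes its name from cells filled with lipid and glycogen, and PLIN2 and HILPDA are known as genes that respond to hypoxia-inducible factors.

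Between 15926561 and 24272298 read pairs were counted on genes per library. CPM, used below for levels, is the count of a gene scaled to library size with edgeR's TMM factors over the 24 libraries, and levels of different genes are compared only as RPKM, which is CPM per kilobase of exon. KDM5C was at 70.8 ± 0.56 CPM in ACHN shNC, 43.1 ± 1.36 CPM in shKDM5C and 40.6 ± 0.644 CPM in Dsh cells (SD, n = 3). In HK2 cells KDM5C was at 191 ± 3.16, 56.2 ± 19.2 and 68.2 ± 2.92 CPM in the same groups. YY1 was at 139 ± 3.9, 76.8 ± 3.57 and 97 ± 7.07 CPM in ACHN shNC, shYY1 and Dsh cells and at 208 ± 6.38, 63.9 ± 2.81 and 74.2 ± 1.78 CPM in those of HK2 (SD, n = 3). Each hairpin target was therefore lower in every library of its own group than in every shNC library of that line. Replicate 1 of HK2 shKDM5C stood apart: over genes, the root mean square distance of its log2 CPM to its replicates was 0.993 and 0.984, against 0.513 between the other 2 replicates and at most 0.542 between replicates in other groups, and its KDM5C level was 34.1 CPM against 67.5 and 67.1 CPM. Results that rest on it are given with and without it. The 6 kidney epithelium markers (PAX8, PAX2, KRT8, KRT18, CDH16 and LHX1) were at 1 CPM or more in all groups. Their summed level was 2206 to 2250.1 CPM in ACHN shNC, 2525 to 2642 CPM in shKDM5C, 2636 to 2724 CPM in shYY1 and 1530.2 to 1683 CPM in Dsh libraries, and 2793 to 2901 CPM, 2191 to 2948 CPM, 1906 to 2048 CPM and 1499 to 1609 CPM in those of HK2, so that it was lowest in the Dsh cells of both lines. Only GGT1 and SLC5A2 of 6 markers of differentiated proximal tubule reached this level in either line, with sums of 72.7 to 75.5, 84.1 to 87.1, 102 to 105 and 119 to 134 CPM in the 4 ACHN groups and 194 to 214, 162 to 347, 147 to 153 and 219.8 to 224 CPM in those of HK2 in the same order. Of the 5 adipocyte markers only LIPE did, with a summed level of at most 5.87 CPM in any library, and ADIPOQ, LEP and CIDEC were at or near 0. The 5 muscle markers (MB, MYH7, CKM, TNNT2 and ACTC1) moved with the ACHN groups at low levels, with sums of 2.33 to 3.25 CPM in shNC, 8.04 to 9.64 CPM in shKDM5C, 5.44 to 6.38 CPM in shYY1 and 0.166 to 0.206 CPM in Dsh libraries. Only ACTC1 of them reached 1 CPM, in the first 3 of these groups, MYH7 was at 0 in ACHN, and they summed to at most 1.88 CPM in HK2. The 4 blood cell markers summed to at most 1.25 CPM in ACHN and to 7.36 to 8.64 CPM in HK2 shNC, 5.22 to 8.84 CPM in shKDM5C, 4.04 to 5.06 CPM in shYY1 and 9.80 to 12 CPM in Dsh libraries, where CD14 was above 1 CPM in all groups and CSF1R in the knockdowns, and the 4 endothelial markers to at most 1.78 CPM in any library. The part of these marker changes in the results below was not tested.

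The members moved in both directions in every knockdown in which any of them was called, and the direction often depended on the cell line. PLIN2 and HILPDA fell in all 3 ACHN knockdowns and rose in HK2 shYY1 and Dsh cells, whereas CPT1A rose in all 3 ACHN knockdowns and fell in HK2 shYY1 and Dsh cells. FABP5 was lower in Dsh cells of both lines and higher in ACHN shKDM5C cells. FABP3 had the largest change of the members in ACHN shYY1 and Dsh cells and was near the detection limit in HK2 cells. The HK2 calls depended on which libraries set the spread. With all 4 HK2 groups in the fit, only PLIN2 in shYY1 and FABP5 in Dsh cells were still called against shNC. In shKDM5C cells that fit gained calls of PLIN2 (edgeR, adjusted p = 0.0046) and CPT1A (adjusted p = 0.025). With replicate 1 of shKDM5C left out of that fit, a setting chosen after the data were seen, all 3 calls in shYY1 and all 6 in Dsh cells were made. A change was called where the quasi-likelihood F test of edgeR gave a p under 0.05 after Benjamini-Hochberg correction over every gene in the test. In bulk RNA, a change in the share of cells that express a gene and a change in its RNA per cell cannot be told apart.

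FABP3 (ENSG00000121769) lies on the minus strand of chromosome 1 at chr1:31365625-31376850, PLIN2 (ENSG00000147872) on the minus strand at chr9:19108375-19149290 and CPT1A (ENSG00000110090) on the minus strand at chr11:68754620-68844410 (GRCh38, Ensembl release 84). The promoters of these 3 genes are shown because of the size or the opposite directions of their changes below. RefSeq promoter windows (GRCh38.p14, 250 bases before to 50 bases after a gene's start) were at hand for 7 of the 10 members. The RefSeq starts of FABP3, PLIN2 and CPT1A lie inside the longer Ensembl spans, that of CPT1A close to the upstream end, so these windows stand for 1 start each. The windows below are at chr1:31373027-31373326, chr9:19127443-19127742 and chr11:68844228-68844527, each on the minus strand, written 5′ to 3′ with matches to ACGTG on either strand, 1 form of the core of the hypoxia response element, in capitals.
FABP3: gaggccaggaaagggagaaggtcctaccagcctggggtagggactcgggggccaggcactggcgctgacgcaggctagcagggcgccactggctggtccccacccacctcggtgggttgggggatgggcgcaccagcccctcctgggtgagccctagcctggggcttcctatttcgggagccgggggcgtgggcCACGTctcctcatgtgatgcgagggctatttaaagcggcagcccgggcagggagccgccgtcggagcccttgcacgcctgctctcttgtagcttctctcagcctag
PLIN2: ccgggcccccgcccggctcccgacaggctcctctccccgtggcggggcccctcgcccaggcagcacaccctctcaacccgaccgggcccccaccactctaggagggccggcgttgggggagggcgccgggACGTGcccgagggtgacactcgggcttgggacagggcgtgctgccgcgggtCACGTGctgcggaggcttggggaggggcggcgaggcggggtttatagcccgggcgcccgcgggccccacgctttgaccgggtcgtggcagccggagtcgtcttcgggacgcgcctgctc
CPT1A: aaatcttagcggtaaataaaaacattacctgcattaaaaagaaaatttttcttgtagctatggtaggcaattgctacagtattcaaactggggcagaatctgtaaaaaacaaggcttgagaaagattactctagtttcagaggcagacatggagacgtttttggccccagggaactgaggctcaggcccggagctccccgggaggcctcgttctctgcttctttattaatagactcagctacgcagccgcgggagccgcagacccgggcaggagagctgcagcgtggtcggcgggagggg

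ACGTG occurs in 21.4% of 35116 RefSeq promoter windows of this length. It was found once in the FABP3 window, at position -56 from the start, and in the PLIN2 window at an isolated match and at a palindromic CACGTG that counts on both strands. The other 5 windows (FABP6, FABP7, PLIN3, PLIN4 and CPT1A) held no match to ACGTG. The other form of this core, GCGTG, was not searched for, and its letters occur in the printed windows of FABP3, PLIN2 and CPT1A. Neither CCATNTT, the core of the YY1 motif and present in 15.6% of all windows, nor AGGTCA, a nuclear receptor motif present in 13.8%, was found on either strand of the 7 windows. A match is only a description of the letters, and its absence says only that these letters are not in this window.

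FABP3, the heart-type fatty acid binding protein, was the most abundant binding protein of ACHN shNC cells. The ACHN shNC libraries had 104, 101 and 105 CPM, the shKDM5C libraries 59.8, 63.4 and 61.0 CPM, the shYY1 libraries 10.7, 12.6 and 11 CPM and the Dsh libraries 13.6, 13.7 and 13.4 CPM. No ACHN library of any group overlapped with another group. FABP3 was thus highest in shNC, intermediate in shKDM5C and low in the 2 groups that carry the YY1 hairpin, with Dsh slightly above shYY1. The log2 fold change against shNC was -0.77 ± 0.04 (SE) in shKDM5C, -3.20 ± 0.06 in shYY1 and -2.93 ± 0.06 in Dsh cells, which is 1.70, 9.18 and 7.61 times lower. The shYY1 and Dsh values exceed the absolute log2 fold change of 1.5 that 3.13% and 8.42% of all genes tested passed together with an adjusted p under 0.05. Because FABP3 was chosen for this fall, nothing is read from that comparison.

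In HK2 cells FABP3 was near the limit of what these libraries can count. The counts were 18, 23 and 9 in shNC, 29, 27 and 35 in shKDM5C, 18, 13 and 12 in shYY1 and 14, 22 and 3 in Dsh libraries, which corresponds to means of 0.905 ± 0.409, 1.74 ± 0.286, 0.843 ± 0.199 and 0.762 ± 0.563 CPM (SD, n = 3). The shKDM5C libraries lay above all other HK2 libraries, whereas shNC, shYY1 and Dsh overlapped. None of these differences passed the test: the log2 fold change was 0.97 ± 0.43 in shKDM5C (adjusted p = 0.34, edgeR), 0.86 ± 0.46 without replicate 1 (adjusted p = 0.20), -0.10 ± 0.46 in shYY1 (adjusted p = 0.90) and -0.25 ± 0.54 in Dsh cells (adjusted p = 0.73). With errors of this size a small fall would not be told apart from 0, and single libraries lay close to the floor of 3 counts. Because FABP3 was chosen for its ACHN falls, those are not set against these errors. The lines were not tested against each other for FABP3. The ACHN shNC level of FABP3 was 114 times that of HK2 shNC, a log2 difference of 6.83 ± 0.12. The HK2 side of this ratio rests on the 18, 23 and 9 counts above. With 1 library left out the difference lay between 6.50 and 7.15, a wider range than that error.

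**Figure D1:**
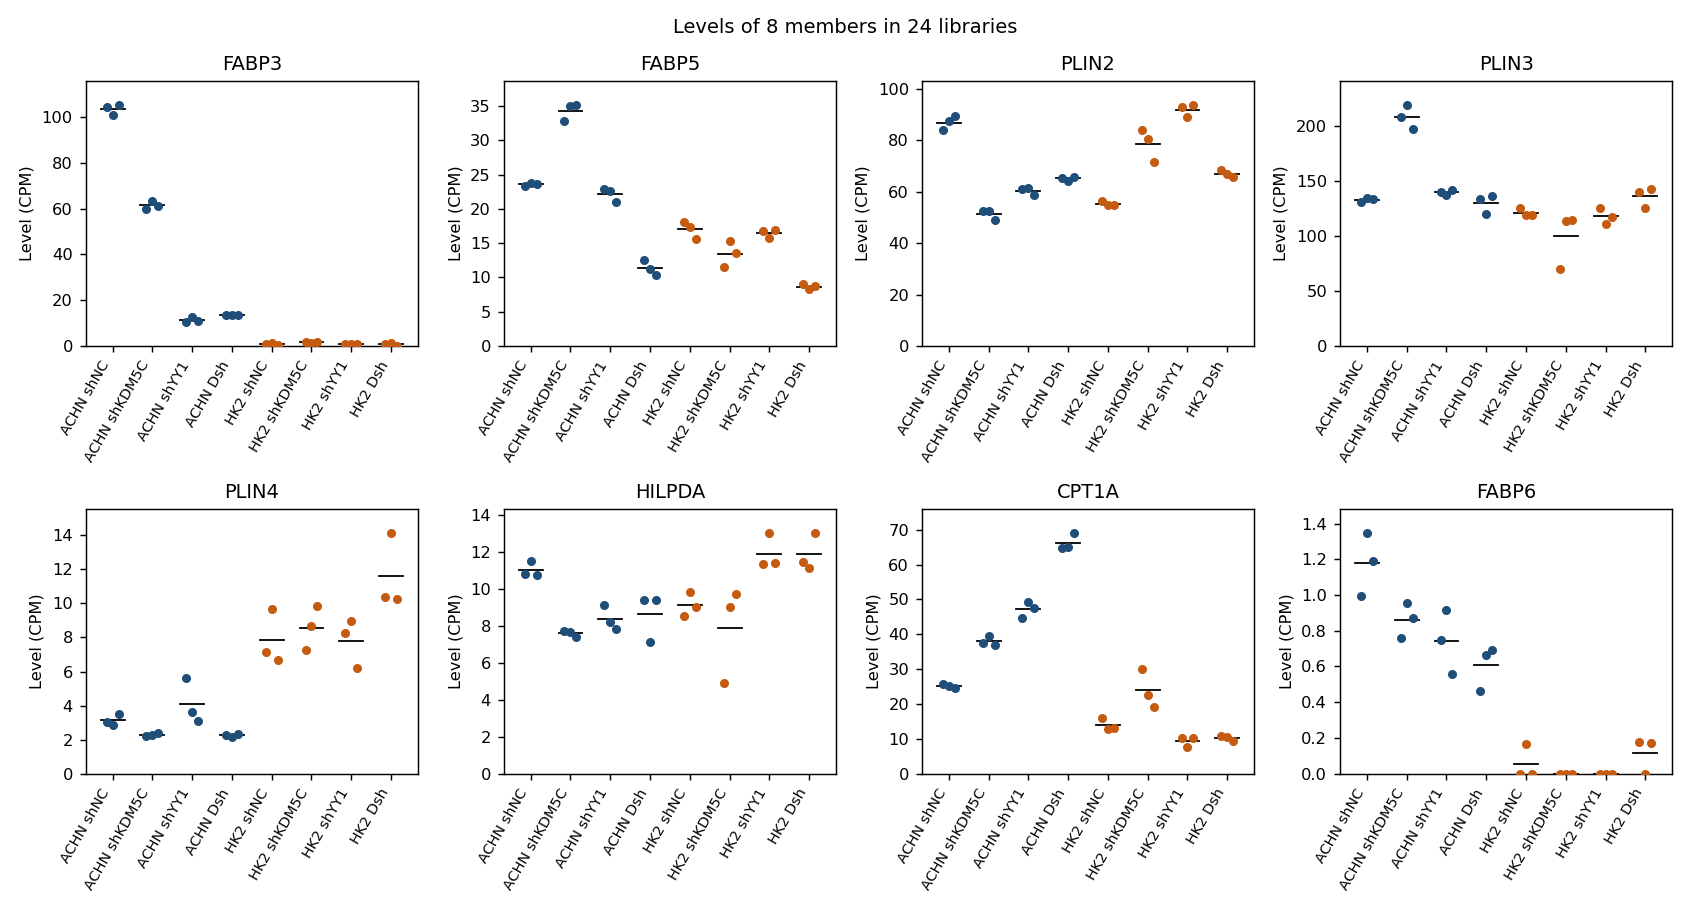
Level (CPM, linear axes from 0) of 8 members in each of the 24 libraries, as 1 point per library with a line at the mean of 3, ACHN groups in blue and HK2 groups in orange. FABP3 falls from 101 to 105 CPM in ACHN shNC to at most 13.7 CPM with the YY1 hairpin and is below 2 CPM in every HK2 library, while CPT1A rises stepwise over the ACHN groups.

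FABP5, the epidermal type, which is found in many tissues, was the only binding protein of HK2 cells above 2 CPM in any group. The ACHN libraries had 23.4, 23.8 and 23.6 CPM in shNC, 32.8, 35.0 and 35.2 CPM in shKDM5C, 22.9, 22.7 and 21.0 CPM in shYY1 and 12.5, 11.2 and 10.4 CPM in Dsh. Those of HK2 had 18.1, 17.4 and 15.6 CPM in shNC, 11.5, 15.4 and 13.5 CPM in shKDM5C, 16.7, 15.8 and 16.9 CPM in shYY1 and 9.03, 8.28 and 8.73 CPM in Dsh. The Dsh libraries were the lowest of each line, without overlap with any other group of that line. In ACHN cells FABP5 rose in shKDM5C (log2 fold change 0.52 ± 0.06, adjusted p = 1.1e-07) and fell in Dsh (-1.05 ± 0.09, adjusted p = 1.1e-08), and the shYY1 value of -0.11 ± 0.07 did not pass the test (adjusted p = 0.18). In HK2 cells it fell in Dsh (-0.97 ± 0.12, adjusted p = 8.1e-08), with values of -0.31 ± 0.15 in shKDM5C (adjusted p = 0.38; -0.25 ± 0.12 without replicate 1) and -0.05 ± 0.11 in shYY1 (adjusted p = 0.77). The difference between the Dsh effects of the lines was -0.06 ± 0.15 (adjusted p = 0.79). FABP5 has 15 pseudogenes in the tables, 11 with counts, of which FABP5P7 held 1197 counts against 8083 for FABP5, so reads may have been divided between near-identical copies.

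FABP6, the ileal bile acid binding protein, was low in ACHN cells and almost undetected in HK2 cells. The ACHN libraries held 19, 25 and 22 counts in shNC, 14, 17 and 16 in shKDM5C, 14, 17 and 10 in shYY1 and 9, 12 and 17 in Dsh, which is 1.18 ± 0.176, 0.862 ± 0.0991, 0.741 ± 0.178 and 0.607 ± 0.125 CPM (SD, n = 3). The mean was lower in each knockdown, and the fall of -0.93 ± 0.35 in Dsh cells passed the test (adjusted p = 0.026), although DESeq2 gave an adjusted p of 0.072 and leaving out 1 library raised it up to 0.11. The values of -0.46 ± 0.31 in shKDM5C (adjusted p = 0.21) and -0.68 ± 0.33 in shYY1 (adjusted p = 0.089) did not pass. In HK2 cells the gene had 3 counts in 1 shNC and in 2 Dsh libraries and 0 in the other 9, where 3 counts are the floor. The shNC groups held 66 counts in ACHN and 3 in HK2, a ratio of 21.9 after scaling with an exact 95% counting interval of 7.18 to 109. FABP4, the adipocyte type, had 3 counts in 1 ACHN Dsh library and 0 in the other 23, and FABP7, the brain type, had 2 counts in 1 HK2 Dsh library and 0 elsewhere. A count of 0 allows up to 3 counts, between 0.122 and 0.196 CPM in these libraries, and intervals and floors cover counting error only. FABP4 and FABP7 passed the filter on low counts in no comparison, and FABP6 passed it in none within HK2 cells.

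Per length, the composition of the binding protein family differed between the lines. In ACHN shNC cells FABP3 was at 101 ± 2.32 RPKM and FABP5 at 11.4 ± 0.109 RPKM (SD, n = 3), and FABP3 made up 89.1 ± 0.406% of the summed RPKM of the 5 family members. That share was 77.6 ± 0.475% in shKDM5C, 49.6 ± 2.14% in shYY1 and 68.7 ± 1.19% in Dsh cells, where FABP5 had also fallen. The summed RPKM fell from 113 ± 2.13 in shNC to 77.1 ± 2.37, 22.5 ± 1.36 and 19.2 ± 0.477 RPKM in the 3 knockdowns. In HK2 cells FABP5 held 79.1% to 90.6% of a sum that was between 5.03 and 9.13 RPKM, the lowest of which was in Dsh cells. As FABP3 enters the sum, the ACHN shares restate its choice and have no test.

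**Figure D2:**
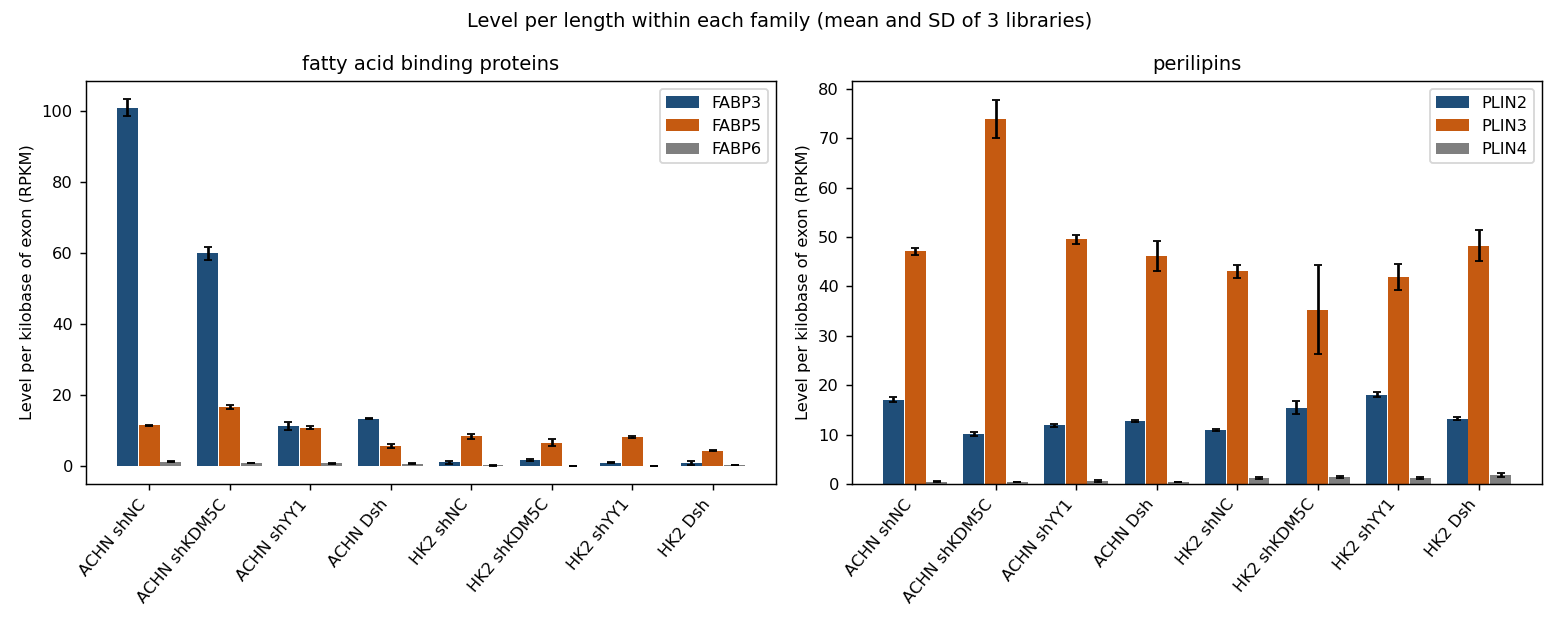
Level per kilobase of exon (RPKM, mean with SD of 3 libraries) of the binding proteins FABP3, FABP5 and FABP6 on the left and of the perilipins PLIN2, PLIN3 and PLIN4 on the right, in the 8 groups. FABP3 leads in ACHN shNC (101 RPKM) and is about level with FABP5 in ACHN shYY1, whereas PLIN3 leads the perilipins in every group.

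PLIN2, which coats lipid droplets in most tissues and is stabilised by them, moved in opposite directions in the lines. The ACHN libraries had 84, 87.4 and 89.5 CPM in shNC, 52.6, 52.3 and 48.9 CPM in shKDM5C, 61.3, 61.6 and 58.7 CPM in shYY1 and 65.5, 64.2 and 65.9 CPM in Dsh. In HK2 the values were 56.3, 54.7 and 55 CPM in shNC, 84.1, 80.4 and 71.7 CPM in shKDM5C, 92.9, 89.0 and 93.8 CPM in shYY1 and 68.5, 67.1 and 65.6 CPM in Dsh. Every ACHN knockdown library was below every ACHN shNC library, and every HK2 knockdown library was above every HK2 shNC library. The falls in ACHN were -0.78 ± 0.05 in shKDM5C (adjusted p = 1.8e-13), -0.54 ± 0.04 in shYY1 (adjusted p = 9.1e-13) and -0.41 ± 0.05 in Dsh (adjusted p = 1.0e-06). In HK2 cells the gene rose by 0.73 ± 0.06 in shYY1 (adjusted p = 3.7e-09) and 0.27 ± 0.06 in Dsh (adjusted p = 0.00031, and 0.062 with all 4 groups in the fit). The HK2 shKDM5C value of 0.55 ± 0.13 was not called with all libraries of the 2 groups (adjusted p = 0.13). It was called by DESeq2 (adjusted p = 0.015) and with all 4 groups in the fit (adjusted p = 0.0046), and was 0.45 ± 0.07 without replicate 1 (adjusted p = 1.4e-05). The difference between the lines, as ACHN minus HK2, was -1.31 ± 0.13 for shKDM5C (adjusted p = 7.4e-05), -1.26 ± 0.07 for shYY1 (adjusted p = 8.2e-15) and -0.66 ± 0.07 for Dsh (adjusted p = 1.8e-08).

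PLIN3, which also shuttles between cytosol and nascent droplets, was the most abundant perilipin per length in all 8 groups. Its levels were 130, 134 and 133 CPM in ACHN shNC, 208, 219 and 197 CPM in shKDM5C, 139, 137 and 142 CPM in shYY1 and 133, 120 and 136 CPM in Dsh. The shKDM5C libraries stood above all others, and the remaining 3 ACHN groups lay within 120 to 142 CPM. The rise in shKDM5C was 0.63 ± 0.04 (adjusted p = 1.3e-13), while shYY1 (0.05 ± 0.03, adjusted p = 0.22) and Dsh (-0.02 ± 0.05, adjusted p = 0.73) gave no call. The HK2 libraries had 125, 119 and 119 CPM in shNC, 69.8, 114 and 114 CPM in shKDM5C, 125, 111 and 117 CPM in shYY1 and 140, 126 and 142 CPM in Dsh. The low value of shKDM5C was that of replicate 1, and without it the difference from shNC went from -0.26 ± 0.17 (adjusted p = 0.47) to -0.10 ± 0.05 (adjusted p = 0.20). The HK2 Dsh libraries lay above all shNC libraries, barely so at the closest pair, and their small rise of 0.16 ± 0.05 passed the test (adjusted p = 0.011), with an adjusted p of up to 0.057 when 1 library was left out and of 0.47 with all 4 groups in the fit. The shKDM5C effect differed between the lines by 0.90 ± 0.19 (adjusted p = 0.0089), and by 0.73 ± 0.06 without replicate 1 (adjusted p = 3.7e-11).

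PLIN4, a perilipin of adipocytes and muscle, was the least abundant of the 3. Its levels were 3.04, 2.86 and 3.52 CPM in ACHN shNC, 2.22, 2.25 and 2.39 CPM in shKDM5C, 5.60, 3.61 and 3.08 CPM in shYY1 and 2.26, 2.16 and 2.32 CPM in Dsh. In HK2 cells they were 7.16, 9.65 and 6.69 CPM in shNC, 7.24, 8.65 and 9.83 CPM in shKDM5C, 8.26, 8.95 and 6.18 CPM in shYY1 and 10.4, 14.1 and 10.3 CPM in Dsh. The shKDM5C and Dsh libraries lay below shNC in ACHN, and in HK2 the Dsh libraries lay above all others. The ACHN shKDM5C fall of -0.47 ± 0.20 was only just called (adjusted p = 0.046) and was not called by DESeq2 (adjusted p = 0.11), with all 4 groups in the fit (adjusted p = 0.080) or after leaving out any 1 of the 6 libraries, and the Dsh fall of -0.47 ± 0.20 was not called (adjusted p = 0.052). In HK2 Dsh cells the gene rose by 0.56 ± 0.16 (adjusted p = 0.0037), or by 0.40 without Dsh replicate 2 (adjusted p = 0.061), and was not called with all 4 groups in the fit (adjusted p = 0.063). The Dsh effect differed between the lines by -1.01 ± 0.26 (adjusted p = 0.0022). Exons of PLIN4 overlap those of HDGFL2 on the other strand, which held 38311 counts against 2557 for PLIN4, and reads of the pair cannot be told apart where they overlap.

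Per length, PLIN2 held 26.4 ± 0.395% of the summed RPKM of the 3 perilipins in ACHN shNC, 12 ± 0.301% in shKDM5C, 19.2 ± 0.663% in shYY1 and 21.6 ± 0.94% in Dsh cells (SD, n = 3). In HK2 cells the share was 19.7 ± 0.271%, 30.5 ± 7.41%, 29.6 ± 0.944% and 20.9 ± 1.07% in the same order. No ACHN knockdown library reached the share of any shNC library. Within HK2 shKDM5C the shares were 38.9, 27.4 and 25.0%, the first of which was replicate 1 with its low PLIN3 level.

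HILPDA, a small droplet protein that inhibits the triglyceride lipase ATGL and is induced by hypoxia, was called in the same directions as PLIN2 against shNC. The ACHN libraries had 10.8, 11.5 and 10.8 CPM in shNC, 7.75, 7.65 and 7.40 CPM in shKDM5C, 9.13, 8.19 and 7.84 CPM in shYY1 and 9.42, 7.14 and 9.41 CPM in Dsh. All knockdown libraries were below all shNC libraries. It fell by 0.55 ± 0.11 on the log2 scale in shKDM5C (adjusted p = 7.9e-05), by 0.42 ± 0.11 in shYY1 (adjusted p = 0.0012) and by 0.34 ± 0.12 in Dsh (adjusted p = 0.023, and 0.12 without Dsh replicate 2). The HK2 libraries had 8.53, 9.82 and 9.01 CPM in shNC, 4.89, 9.01 and 9.72 CPM in shKDM5C, 11.3, 13 and 11.4 CPM in shYY1 and 11.4, 11.2 and 13 CPM in Dsh. The shYY1 and Dsh libraries of HK2 lay above all shNC libraries, and the low shKDM5C value was that of replicate 1. The rise was 0.38 ± 0.13 in both shYY1 (adjusted p = 0.031) and Dsh (adjusted p = 0.019), and each call was lost when any 1 of 3 of the 6 libraries was left out, with an adjusted p of up to 0.13 and 0.089, and with all 4 groups in the fit (adjusted p = 0.32 and 0.19). For shKDM5C the value was -0.19 ± 0.24 (adjusted p = 0.69) and 0.03 ± 0.15 without replicate 1 (adjusted p = 0.93). The difference between the lines was -0.79 ± 0.17 for shYY1 (adjusted p = 0.00041) and -0.70 ± 0.18 for Dsh (adjusted p = 0.0024).

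CPT1A, the carnitine palmitoyltransferase of the mitochondrial entry step, went the other way. It had 25.7, 25.2 and 24.6 CPM in ACHN shNC, 37.6, 39.5 and 37.0 CPM in shKDM5C, 44.6, 49.3 and 47.5 CPM in shYY1 and 64.6, 65.2 and 69.1 CPM in Dsh. The 4 ACHN groups were fully separated, in the order shNC, shKDM5C, shYY1 and Dsh. The rise was 0.58 ± 0.06 in shKDM5C (adjusted p = 9.9e-09), 0.88 ± 0.06 in shYY1 (adjusted p = 9.6e-15) and 1.41 ± 0.06 in Dsh (adjusted p = 6.3e-13), the last of which was 2.65-fold. HK2 cells had 16, 12.8 and 13.2 CPM in shNC, 30.1, 22.5 and 19.2 CPM in shKDM5C, 10.3, 7.54 and 10.3 CPM in shYY1 and 10.7, 10.4 and 9.47 CPM in Dsh. The shYY1 and Dsh libraries of HK2 were below, and the shKDM5C libraries above, all those of shNC. The falls were -0.58 ± 0.14 in shYY1 (adjusted p = 0.0031) and -0.46 ± 0.13 in Dsh (adjusted p = 0.0038). Neither was called with all 4 groups in the fit (adjusted p = 0.13 and 0.11), and both were once replicate 1 of shKDM5C was left out of it (adjusted p = 0.0013 and 0.0056). The shKDM5C value of 0.82 ± 0.23 was not called with all libraries of the 2 groups (adjusted p = 0.18). It was called by DESeq2 (adjusted p = 0.039) and with all 4 groups in the fit (adjusted p = 0.025), and was 0.56 ± 0.12 without replicate 1 (adjusted p = 0.0014). Between the lines the effect differed by 1.48 ± 0.14 for shYY1 (adjusted p = 1.5e-09) and 1.88 ± 0.13 for Dsh (adjusted p = 5.1e-13), but for shKDM5C by -0.22 ± 0.23 (adjusted p = 0.57) and, without replicate 1, by 0.02 ± 0.13.

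**Figure D3:**
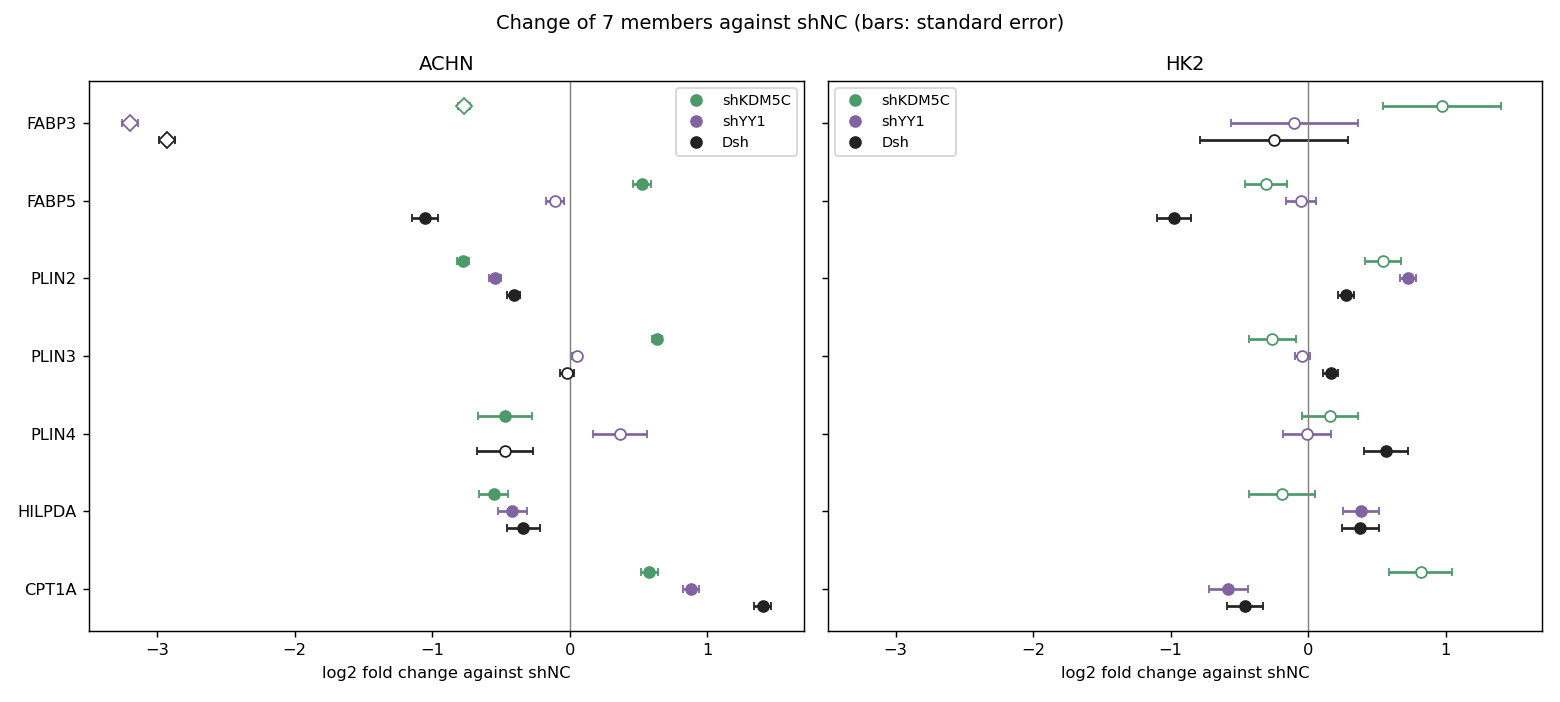
Log2 fold change against shNC of the 7 members above the filter in both lines, with bars of 1 standard error, for shKDM5C (green), shYY1 (purple) and Dsh (black). Filled circles passed an adjusted p under 0.05, open circles did not, and open diamonds mark FABP3 in ACHN cells, which has no test, and PLIN2 and HILPDA lie left of 0 in ACHN and CPT1A right of it, and in HK2 shYY1 and Dsh they lie on the opposite sides.

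Counted by comparison, 8 members passed the filter in ACHN cells, of which FABP3 has no test. In ACHN shKDM5C cells 6 of the 7 tested members were called, 3 lower (PLIN2, PLIN4, HILPDA) and 3 higher (FABP5, PLIN3, CPT1A), against 56.6% of all genes tested, 27.7% lower and 28.9% higher. The shYY1 comparison called 3 of 7, PLIN2 and HILPDA lower and CPT1A higher, against 48.7% of all genes, 24.5% lower and 24.2% higher. The Dsh comparison called 5 of 7, FABP5, FABP6, PLIN2 and HILPDA lower and CPT1A higher, against 62.6%, 32.0% lower and 30.7% higher. Their median log2 fold change was -0.46, -0.11 and -0.41 in the 3 knockdowns, against -0.01 over all genes in each. In HK2 shKDM5C cells edgeR called 0 of 7, against 1.32% of all genes. At an unadjusted p under 0.05 there were 2, against 15.3%, and DESeq2 called 2, against 4.99%. Without replicate 1 edgeR called 2, against 22.3%. HK2 shYY1 cells had 3 calls of 7, PLIN2 and HILPDA higher and CPT1A lower, against 29.1% of all genes, 14.3% higher and 14.7% lower. HK2 Dsh cells had 6 of 7, PLIN2, PLIN3, PLIN4 and HILPDA higher and FABP5 and CPT1A lower, against 49.8%, 25.5% higher and 24.3% lower. With backgrounds this high, and with all comparisons of a line sharing their shNC libraries, the number of calls is no result about the members. Their sizes and directions are given above.

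Whether the double knockdown differed from each knockdown alone was tested next. In ACHN cells Dsh differed from shKDM5C in 4 of 7 members, against 62.5% of all genes. FABP5 (-1.58 ± 0.09, adjusted p = 9.0e-11) and PLIN3 (-0.65 ± 0.05, adjusted p = 1.6e-08) were lower, and PLIN2 (0.37 ± 0.06, adjusted p = 2.1e-05) and CPT1A (0.83 ± 0.06, adjusted p = 2.6e-09) higher. Against shYY1 3 of 7 differed, against 64.6%: FABP5 (-0.96 ± 0.09, adjusted p = 1.1e-07) and PLIN4 (-0.85 ± 0.23, adjusted p = 0.0038, and 0.050 without shYY1 replicate 1, which had the highest ACHN level of PLIN4) were lower and CPT1A (0.50 ± 0.06, adjusted p = 1.2e-06) higher. For FABP3 the log2 difference of Dsh was -2.16 ± 0.07 from shKDM5C and 0.25 ± 0.10 from shYY1. In HK2 cells Dsh differed from shYY1 in 4 of 7, against 47.7%: FABP5 (-0.92 ± 0.12, adjusted p = 1.3e-06) and PLIN2 (-0.45 ± 0.06, adjusted p = 9.1e-07) were lower, PLIN3 (0.21 ± 0.06, adjusted p = 0.0060) and PLIN4 (0.58 ± 0.16, adjusted p = 0.0057) higher. With all 4 groups in the fit neither PLIN3 (adjusted p = 0.34) nor PLIN4 (adjusted p = 0.060) was called here, and PLIN4 was not called without Dsh replicate 2 (adjusted p = 0.072) or shYY1 replicate 3 (adjusted p = 0.052). Dsh differed from shKDM5C in 2 of 7, against 11.9%, with CPT1A (-1.28 ± 0.22, adjusted p = 0.014) and FABP5 (-0.67 ± 0.16, adjusted p = 0.038) lower, and in 4 without replicate 1, against 43.3%, where PLIN2 (-0.18 ± 0.07, adjusted p = 0.031) and PLIN3 (0.25 ± 0.06, adjusted p = 0.00091) joined them. Both of these HK2 calls were lost when any 1 Dsh library was left out, with an adjusted p of up to 0.17 for FABP5 and 0.090 for CPT1A, and that of FABP5 also without shKDM5C replicate 2 or 3, with total-count scaling (adjusted p = 0.072) and with no filter (adjusted p = 0.091).

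An interaction was taken as the log2 effect of Dsh minus the sum of the effects of shKDM5C and shYY1, and it was 0 where the effects add up. The sum takes knockdown to be equal in single and double groups. In ACHN cells YY1 was at -0.88 ± 0.04 in shYY1 but at -0.51 ± 0.05 in Dsh. KDM5C rose in shYY1 by 0.34 ± 0.04 in ACHN (adjusted p = 1.1e-08, edgeR) and 0.35 ± 0.05 in HK2 (adjusted p = 1.5e-05). The part of these differences in the interactions, and in Dsh against a single knockdown, was not tested. In ACHN cells 4 of 7 members departed from 0, against 55.6% of all genes. FABP5 (-1.49 ± 0.11, adjusted p = 1.1e-11) and PLIN3 (-0.73 ± 0.07, adjusted p = 6.2e-10) were lower in Dsh than the sum, and PLIN2 (0.89 ± 0.07, adjusted p = 2.5e-11) and HILPDA (0.61 ± 0.17, adjusted p = 0.0029) higher. PLIN2 and HILPDA thus fell less in Dsh cells than the sum of both falls. CPT1A had an interaction of -0.08 ± 0.08 (adjusted p = 0.40), so that its rise in ACHN Dsh cells was not told apart from the sum. For FABP3 the value was 1.01 ± 0.09, given as a description. In HK2 cells 2 of 7 departed from 0, against 9.61%: PLIN2 (-1.0 ± 0.14, adjusted p = 0.00078) and FABP5 (-0.62 ± 0.17, adjusted p = 0.040). The FABP5 call was lost with total-count scaling (adjusted p = 0.11), with no filter (adjusted p = 0.23) and without any 1 of 11 of the 12 libraries (adjusted p of up to 0.12), all except replicate 1 of shKDM5C. Without replicate 1 of shKDM5C 3 did, against 28.7%, with PLIN2 at -0.89 ± 0.09 (adjusted p = 3.6e-09), FABP5 at -0.67 ± 0.17 (adjusted p = 0.0029) and PLIN3 at 0.31 ± 0.08 (adjusted p = 0.0050). The sign of the PLIN2 interaction was opposite in the lines, a contrast that was not tested itself, and that of FABP5 was negative in both.

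The control cells of the lines differed in all 7 tested members, against 76.6% of all genes. FABP6 passed the filter here only through its ACHN counts, so its call was all but fixed and nothing is read from it. Taken as ACHN minus HK2, CPT1A (0.84 ± 0.09, adjusted p = 7.1e-09), PLIN2 (0.64 ± 0.05, adjusted p = 3.1e-12), FABP5 (0.46 ± 0.09, adjusted p = 3.0e-05), HILPDA (0.27 ± 0.12, adjusted p = 0.046) and PLIN3 (0.12 ± 0.04, adjusted p = 0.0088) were higher in ACHN shNC, as was FABP6, whose count ratio is given above. PLIN4 was higher in HK2 (-1.33 ± 0.18, adjusted p = 1.5e-07). The HILPDA difference was not called by DESeq2 (adjusted p = 0.083) or without any 1 of 5 of the 6 libraries. With total-count scaling neither HILPDA (adjusted p = 0.11, edgeR) nor PLIN3 (0.06 ± 0.04, adjusted p = 0.15) was called. Each line is 1 cell line with 1 history, so that differences between them cannot be attributed to the cancer. Counted over the members, the knockdown effect differed between the lines in 3 of 7 for shKDM5C (FABP5, PLIN2 and PLIN3), against 11.9% of all genes, in 5 without replicate 1 of HK2 shKDM5C, against 33.9%, in 3 for shYY1 (PLIN2, HILPDA and CPT1A), against 33.1%, and in 4 for Dsh (PLIN2, PLIN4, HILPDA and CPT1A), against 46.0%. These 7 include FABP6, which again passed the filter only through ACHN and was not among the calls.

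The other genes of fatty acid handling were taken as 83 genes in 6 lists, 63 of which were tested in each comparison. In ACHN shKDM5C cells 21 fell and 22 rose, against 27.7% and 28.9% of all genes. In ACHN shYY1 cells 21 fell and 17 rose (24.5% and 24.2% of all genes), and in ACHN Dsh cells 22 fell and 19 rose (32.0% and 30.7%). In HK2 shKDM5C cells 0 fell and 2 rose, against 1.32% of all genes in either direction, and without replicate 1 10 fell and 11 rose, against 22.3%. In HK2 shYY1 cells 12 fell and 8 rose (14.7% and 14.3% of all genes), and in HK2 Dsh cells 12 fell and 24 rose (24.3% and 25.5%). The median log2 fold change over the 63 genes was between -0.13 and 0.09, that of single lists with more than 1 tested gene between -0.28 and 0.30, and the medians of all genes lay within 0.01 of 0. In ACHN Dsh cells 5 fell and 4 rose of 13 genes of fatty acid uptake and activation, 6 and 3 of 15 of triglyceride synthesis and droplet formation, 0 and 3 of 6 of lipolysis, 7 and 4 of 17 of the carnitine shuttle and beta-oxidation, the list to which CPT1A would belong, and 4 and 5 of 12 regulators and PPAR or HIF targets. In HK2 Dsh cells the same lists had 2 lower and 7 higher of 11, 3 and 6 of 15, 1 and 3 of 7, 4 and 2 of 17, and 2 and 6 of 12. No single list was tested against the other genes.

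**Figure D4:**
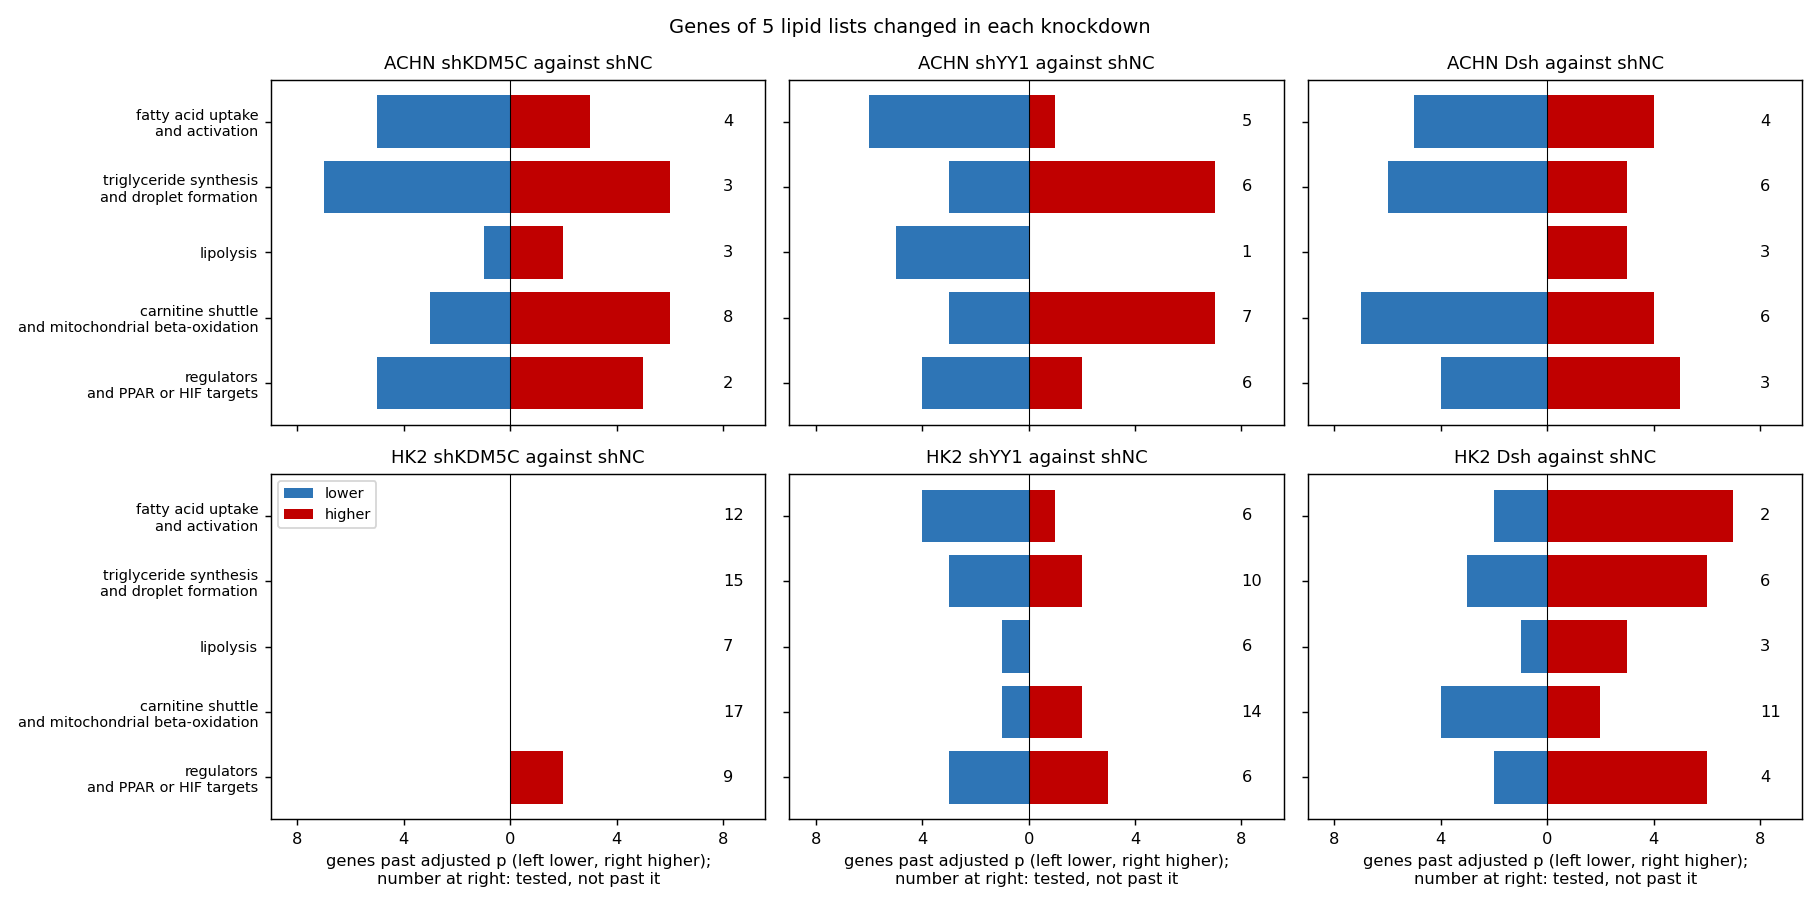
Number of genes in 5 lists of fatty acid handling that fell (blue, to the left) or rose (red, to the right) at an adjusted p under 0.05 in each knockdown against shNC, with the number tested but not called at the right of each row. The directions are mixed in most lists, and in HK2 shKDM5C only 2 genes are called.

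Up to 6 genes of these lists per comparison, those with the largest called changes of at least 1 on the log2 scale and 5 CPM in the higher group, are named with their values. ANGPTL4, a secreted inhibitor of lipoprotein lipase that PPARs and hypoxia induce, rose in all 3 ACHN knockdowns, from 5.29 ± 0.422 CPM in shNC to 31.8 ± 3.54 CPM in shKDM5C, 13.9 ± 2.1 CPM in shYY1 and 270 ± 6.73 CPM in Dsh cells (SD, n = 3), which is a log2 fold change of 5.68 ± 0.07 in Dsh (adjusted p = 1.1e-20). EPAS1, which encodes HIF-2 alpha, fell from 609 ± 13.3 CPM to 245 ± 7.57 CPM in ACHN shKDM5C and 209 ± 4.17 CPM in Dsh cells. ACSS2, which makes acetyl-CoA from acetate, fell in all 3, by 1.17 ± 0.06, 1.03 ± 0.05 and 1.87 ± 0.07. In ACHN shYY1 cells GPAT3 (-2.54 ± 0.11, and -1.05 ± 0.09 in Dsh), of triglyceride synthesis, PNPLA3 (-1.23 ± 0.12) and the monoglyceride lipase MGLL (-1.23 ± 0.05) fell. In ACHN shKDM5C cells the lipase coactivator ABHD5 rose (1.03 ± 0.07), and in Dsh cells AGPAT2 (-1.36 ± 0.06) and the acyl-CoA binding protein DBI (-1.26 ± 0.09) fell and the coactivator PPARGC1A (1.51 ± 0.21) rose. HK2 Dsh cells had rises of G0S2 (2.44 ± 0.14), an ATGL inhibitor like HILPDA, of the lysosomal lipase LIPA (1.40 ± 0.05) and of ACSL5 (1.18 ± 0.16), with falls of AGPAT2 (-1.38 ± 0.07) and ACSS1 (-1.30 ± 0.22). ACSS1 (-1.06 ± 0.21) and PPARGC1B (-1.33 ± 0.23) fell in HK2 shYY1, and PPARGC1B (1.39 ± 0.17) and PDK4 (2.06 ± 0.21), which restrains glucose oxidation, were the 2 that rose in HK2 shKDM5C cells, by 1.39 ± 0.16 and 1.98 ± 0.20 without replicate 1.

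The genes whose pattern was most like that of FABP3 over the 12 ACHN libraries were, among 15824 genes and by Pearson's r of log2 CPM, NPPB (0.996), ALDH1A1 (0.996), STC2 (0.994), MYO18A (0.989) and SERINC2 (0.982). The 12 points fall into 4 groups, so r mostly restates the group means. ALDH1A1, a retinaldehyde dehydrogenase, was at 625 ± 27, 509 ± 27.4, 213 ± 9.15 and 228 ± 6.24 CPM in shNC, shKDM5C, shYY1 and Dsh (SD, n = 3). NPPB, the natriuretic peptide precursor, was much less abundant, with 84 counts in the 3 shNC libraries, 41 in shKDM5C and 0 in shYY1 and Dsh. STC2, a secreted glycoprotein, was at 94.6 ± 3.91, 71.4 ± 2.23, 28.8 ± 1.85 and 29.2 ± 2.41 CPM, again with shYY1 and Dsh at the low end.

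SERINC2, one of these genes, is also a neighbour of FABP3, 32715 bp away at chr1:31409565-31434680 on the plus strand. Its ACHN levels were 49.7 ± 1.85, 43.9 ± 2.47, 30.1 ± 1.38 and 31.4 ± 1.68 CPM in shNC, shKDM5C, shYY1 and Dsh, and since likeness to FABP3 chose it, these have no test. In HK2 cells, which the choice did not use, SERINC2 fell in shYY1 (-1.03 ± 0.10, adjusted p = 5.9e-08) and Dsh (-0.57 ± 0.10, adjusted p = 1.3e-05), from 29.7 ± 2.26 CPM to 14.5 ± 0.779 and 20.1 ± 2.39 CPM (SD, n = 3), with a shKDM5C value of -0.62 ± 0.26 that was not called (adjusted p = 0.32) but was called without replicate 1 (-0.37 ± 0.10, adjusted p = 0.0098). The nearest gene with counts on the other side, ZCCHC17, 672 bp away, was at -0.20 ± 0.09 in ACHN shYY1 (adjusted p = 0.048) and -0.14 ± 0.09 in ACHN Dsh cells (adjusted p = 0.18), far from the change of FABP3. SNRNP40, 68843 bp away, had 0.05 ± 0.05 in ACHN shYY1 (adjusted p = 0.39) and fell in ACHN Dsh cells (-0.51 ± 0.06, adjusted p = 1.4e-06). In HK2 shYY1 cells, where SERINC2 fell, ZCCHC17 (0.25 ± 0.09, adjusted p = 0.040) and SNRNP40 (0.23 ± 0.07, adjusted p = 0.0095, edgeR) rose. In HK2 Dsh cells neither ZCCHC17 (0.17 ± 0.09, adjusted p = 0.094) nor SNRNP40 (-0.06 ± 0.07, adjusted p = 0.49) was called. These neighbours were looked up by position after the values of FABP3 had been seen.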

How the data were processed

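Total RNA of ACHN and HK2 cells was sequenced as paired-end reads, and the authors aligned them to hg38 with HISAT2 2.0.5 and deposited raw counts per gene (Ensembl release 84). The file headers name featureCounts 2.0.1, the processing notes 1.5.0-p3. No strand option was set, so overlapping and antisense genes share reads. Symbols were matched to 56558 of 60675 genes, and the 4117 without one hold 0.243% of the counts. Groups were taken from the labels and no library was left out.

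From the counts, edgeR 4.0.16 (R 4.3.3) gave TMM factors, a filter on low counts by group and the quasi-likelihood F test on the libraries of each comparison, and p-values were adjusted by Benjamini-Hochberg over every gene in the test. Interactions used the 12 libraries of a line and differences between lines those of the groups concerned. Errors of log2 fold changes are approximate standard errors, taken as the absolute log2 fold change over the square root of the F statistic. The steps were tested on simulated counts. Alternatives were DESeq2 1.42.0, RLE or total-count scaling, no filter, a minimum of 10 counts, a fold threshold of 1.5 (log2), all 4 groups in the fit (in HK2 also, chosen after seeing the data, with shKDM5C replicate 1 left out), a replicate block and each library left out in turn.

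The members and lists were chosen with earlier results of these data known. Named genes are the 10 members, KDM5C, YY1, up to 6 list genes per comparison with the largest called changes of at least 1 (log2) at 5 CPM or more, and the 5 genes most correlated with FABP3 in ACHN cells. Reads carry no molecular identifiers, so intervals cover counting error only.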

Additional observations from a re-analysis of the deposited data

Results flagged for a closer look

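In 10 cases the effect of a knockdown on a member differed between ACHN and HK2 cells by a test of that difference itself (edgeR, 12 libraries, adjusted over all genes). The same tests called 11.9% of all genes for shKDM5C, 33.1% for shYY1 and 46.0% for Dsh, so the number of cases is no result about the members. Values are the log2 effect in ACHN minus that in HK2 cells. For shKDM5C these were PLIN2 at -1.31 ± 0.13, PLIN3 at 0.90 ± 0.19 and FABP5 at 0.84 ± 0.15 (adjusted p = 0.0039). For shYY1 they were PLIN2 at -1.26 ± 0.07, HILPDA at -0.79 ± 0.17 and CPT1A at 1.48 ± 0.14. For Dsh they were PLIN2 at -0.66 ± 0.07, PLIN4 at -1.01 ± 0.26, HILPDA at -0.70 ± 0.18 and CPT1A at 1.88 ± 0.13. PLIN2 was the only member among them for all 3 knockdowns. The shKDM5C values rest in part on replicate 1 of HK2 shKDM5C. Without it they were -1.22 ± 0.08 for PLIN2, 0.73 ± 0.06 for PLIN3 and 0.77 ± 0.13 for FABP5. PLIN4 (-0.69 ± 0.26, adjusted p = 0.037) and HILPDA (-0.57 ± 0.17, adjusted p = 0.0098) were then called as well, against 33.9% of all genes. The part of that library in these results beyond these values was not tested.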

How the results depend on the processing

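Of 1658 tested values of a member under an alternative, 1552 kept their side of the threshold, 75 lost the call and 31 gained it. None of those called reversed. Among the 1552, 38 that were called under neither setting changed sign. Under total-count scaling FABP3 in ACHN cells moved from -0.77 to -0.81 in shKDM5C and from -2.16 to -2.10 for Dsh against shKDM5C, more than the SD of its log2 CPM between replicate libraries, and for the latter less than its standard error of 0.07. The number of members called stayed within 1.5 times in 204 of 253 settings. With a log2 fold change of at least 1.5 added to the call, 0 members remained in most comparisons and 1 in ACHN Dsh against shKDM5C (6.67% of all genes), in the shNC libraries of the lines (21.3%) and in the Dsh effect between lines (8.88%). The 1 between the shNC libraries was FABP6, which passed the filter only through ACHN. With all 4 groups of a line in the fit, the calls in HK2 were 2 in shKDM5C (7.84% of all genes), 1 in shYY1 (5.42%), 1 in Dsh (22.9%), 5 in Dsh against shKDM5C (27.2%) and 2 in Dsh against shYY1 (22%), so that the calls over all genes shifted in the same directions. With replicate 1 of HK2 shKDM5C left out of that fit, an alternative chosen after seeing the data, they were 2 (18.5%), 3 (27.7%), 6 (45.5%), 5 (39.8%) and 4 (44.9%). DESeq2 called 2 in HK2 shKDM5C (4.99%). Total-count scaling and no filter each gave 1 in HK2 Dsh against shKDM5C (11.2% and 7.67%) and 1 in the HK2 interaction (9.27% and 6.3%). The cause of these shifts was not tested. Leaving out 1 library gave 3 to 5 calls in ACHN Dsh (56.1% to 61.4% of all genes), 3 of them without shNC replicate 2, where FABP6 and HILPDA were lost. It gave 0 to 2 in HK2 shKDM5C (0% to 22.3% of all genes) and 0 to 4 in HK2 Dsh against shKDM5C (2.31% to 43.3%). The HK2 interaction had 1 to 3 (5.4% to 28.7%) and the shKDM5C effect between lines 3 to 5 (6.81% to 33.9%). The upper value in HK2 and between the lines for shKDM5C was the one without HK2 shKDM5C replicate 1.

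Same-numbered libraries correlated in their deviations from the group means at -0.029 to 0.036 in ACHN and -0.060 to 0.026 in HK2 (18 pairs of libraries each), so the numbers gave no pairing. With the replicate block, 1 member was called in HK2 Dsh against shKDM5C (797 of all genes, against 1901 without it), 1 in the HK2 interaction (1214 against 1642) and 0 in HK2 shKDM5C cells (0 of all genes against 214), FABP5 losing its call in the first (adjusted p = 0.13) and the second (adjusted p = 0.080), and PLIN4 in ACHN shKDM5C (adjusted p = 0.052) and HILPDA between the shNC groups (adjusted p = 0.064) were not called.

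Depth limits FABP4, FABP6 and FABP7 and, in HK2 cells, FABP3, whose values there rest on 3 to 35 counts per library.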
